A study of Mus musculus with 12 samples.

Results

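Interferon-stimulated genes were examined in sorted CD4+ T cells by bulk RNA sequencing. The set was a list of 42 mouse genes given by name and not by a rule on measured values. It was found by Entrez identifier in a table of 17523 genes. This list and the marker and other gene lists set beside it were chosen with earlier results of these data known. All 42 were present and all 42 passed the filter on low values, which kept the 15587 genes that reached 5 normalized counts in 3 or more libraries. A normalized count is the number of reads of a gene divided by the size factor of its library.

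Interferons are secreted proteins that signal through receptors and Janus kinases to STAT and IRF transcription factors. These factors bind short DNA elements near target genes, mainly the interferon-stimulated response element (ISRE) for type I interferon and the gamma-activated site (GAS) for interferon-γ. The induced genes encode sensors of foreign RNA and DNA, enzymes and binding proteins that block viral replication, GTPases that attack the vacuoles of intracellular microbes, and proteins that amplify or end the response. Low, tonic interferon signalling keeps many of them expressed in T cells without infection.

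The cells came from the spleens of *Gr/fr* mice of the C57BL/6 strain that had received no immunisation or other treatment. In all groups the *Csf2* allele, which encodes GM-CSF, also drove iCre and BFP, and iCre cut out the stop cassette that keeps Rosa26-eYFP silent. YFP therefore marked cells that make or once made GM-CSF and the progeny of such cells, so a YFP+ cell need not have been making it when sorted. Naïve cells and effector memory cells (TEM), the latter high in CD44, were sorted by flow cytometry on surface markers, each with and without YFP, so that there were 4 groups with 3 libraries apiece. The study's methods give an age of 2 to 3 months for mice whose CD4+ T cells were sorted and do not repeat it for the sequencing. The number of mice behind each library is not given in the sources used here beyond a group size of 3, so p-values measure the spread between these libraries.

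The libraries held from 40974124 to 57822269 reads on genes, with a median of 44929387. The summed level of 7 CD4+ T cell markers ranged from 144867 to 221677 normalized counts, and *Cd44*, a marker of the sort, was higher in every TEM library than in any naïve one. Genes of other cells were not absent. The summed level of 7 markers of conventional dendritic cells was 7835 to 16110 in YFP− TEM cells, 459 to 979 in YFP+ TEM cells and at most 290 in naïve cells. One library stood apart from its group, since the summed level of 9 monocyte and macrophage markers was 5064 in naïve YFP+ replicate 2 and at most 743 in the other naïve YFP+ libraries. In bulk samples, fewer cells of a type and less RNA per cell cannot be told apart.

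The promoters were searched for the letters of the interferon response elements, which shows matches of letters and not binding. RefSeq (GRCm38.p6) gave a promoter for 29 of the 42 genes, defined as the 250 bases before and 50 bases after a start site. The ISRE letters GAAANNGAAA, or TTTCNNTTTC when read on the other strand, were present in 19 of the 29 (65.5%) and in 3.99% of 27025 genes. The GAS letters TTCNNNGAA, which read the same on both strands, were present in 7 of the 29 (24.1%) and in 9.55% of all genes. Matches of either motif could overlap one another. The ISRE letters stood in 7 of the 8 matched genes that were higher in TEM than in naïve cells in both YFP fractions, and in 3 of the 8 that were lower in both. They also stood in 9 of the other 13, which were not called in the same direction in both fractions. No promoter was given for *Mx1*, *Ifi204*, *Ifi27l2a* and *Ly6a*, which were higher in both fractions, or for *Usp18*, which was lower in both. In *Ifih1* and *Ddx58* the match lay after the start site. Whether the letters go with the direction was not tested. The stretches below are shown because their genes differed between TEM and naïve cells or because close relatives share them. Capitals mark the ISRE letters. The first 5 belong to genes that were higher in TEM cells, namely *Isg15* (chr4:156200845-156200926, minus strand), *Oas1a* (chr5:120907526-120907575, minus), *Oas3* (chr5:120777695-120777764, minus), *Rsad2* (chr12:26456533-26456602, minus) and *Gbp3* (chr3:142559969-142560043, plus).
Isg15: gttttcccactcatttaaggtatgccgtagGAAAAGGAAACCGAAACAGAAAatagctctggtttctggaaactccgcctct
Oas1a: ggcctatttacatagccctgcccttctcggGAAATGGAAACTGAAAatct
Oas3: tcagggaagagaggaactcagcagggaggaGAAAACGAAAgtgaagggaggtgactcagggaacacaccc
Rsad2: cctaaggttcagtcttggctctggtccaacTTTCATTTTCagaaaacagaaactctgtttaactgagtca
Gbp3: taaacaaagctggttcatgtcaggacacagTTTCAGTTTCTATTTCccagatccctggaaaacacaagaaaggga

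The next 2 belong to the neighbouring genes *Igtp* (chr11:58199492-58199555, plus strand) and *Irgm2* (chr11:58214883-58214952, plus), which were lower in TEM cells in both YFP fractions and carry the same letters in capitals.
Igtp: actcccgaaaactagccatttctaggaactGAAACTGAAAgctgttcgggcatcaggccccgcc
Irgm2: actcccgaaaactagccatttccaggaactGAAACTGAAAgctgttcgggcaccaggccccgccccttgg

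*Ifi207* (chr1:173741811-173741880, minus strand) and *Ifi203* (chr1:173942493-173942557, minus) also share their capitals, although the first had the largest difference of the set and the second one of the smallest.
Ifi207: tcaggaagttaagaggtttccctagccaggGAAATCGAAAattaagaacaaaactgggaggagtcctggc
Ifi203: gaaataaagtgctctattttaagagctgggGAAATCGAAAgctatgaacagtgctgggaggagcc

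*Ifit3* (chr19:34583343-34583446, plus strand) and *Ifit3b* (chr19:34607739-34607842, plus) are neighbouring copies whose promoter stretches are identical letter for letter.
Ifit3: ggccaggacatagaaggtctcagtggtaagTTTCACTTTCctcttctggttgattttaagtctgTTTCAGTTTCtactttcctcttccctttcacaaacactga
Ifit3b: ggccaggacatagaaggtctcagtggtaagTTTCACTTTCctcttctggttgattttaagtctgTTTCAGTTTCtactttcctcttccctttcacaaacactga

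Their transcripts are also alike, so that reads could have been split between them. Of the 50-base stretches in the exons of *Ifit3*, 51.2% also occur in another gene, the copy *Ifit3b*. The same share was 57.6% for *Oas1a*, mainly through *Oas1g*, 20.0% for *Ifi204*, 19.0% for *Ly6a*, 12.7% for *Gbp7*, 12.2% for *Ifi203*, 11.8% for *Igtp* and 7.29% for *Ifi207*. *Ifit3b* (45%), *Rtp4* (11.6%), *Irgm2* (7.77%), *Gbp4* (7.7%) and *Ifit1* (7.13%) had such shares as well. These are shares of sequence and not of error in a count. How far the values of these genes are affected is not known, since the handling of reads that fit several genes is not given in the sources used here. *Parp9* and *Dtx3l* overlap on the chromosome, and the strand setting of the counting is not given in the sources used here, so their reads may be mixed as well.

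The genes differed widely in level. Per kilobase of exon, *Ifi27l2a*, a small interferon-induced membrane protein, and *Ly6a*, which encodes the surface protein Sca-1, were the most abundant in all 4 groups. In YFP− naïve cells *Ifi27l2a* had a mean of 5841 ± 1470 normalized counts per kilobase (SD, n = 3) and *Ly6a* 5127 ± 1434, and their libraries overlapped. The GTPase genes *Igtp* (4361 ± 884) and *Ifi47* (4158 ± 406) followed, and their ranges overlapped too. At the other end, *Ifi207* (2.28 ± 1.10) and *Ifi204* (2.24 ± 2.29) were nearly silent in YFP− naïve cells. In YFP− TEM cells *Ifi27l2a* reached 13103 ± 3872 per kilobase while *Igtp* had 1941 ± 144, and *Ifi207* had moved up to 358 ± 84.6.

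**Figure D1:**
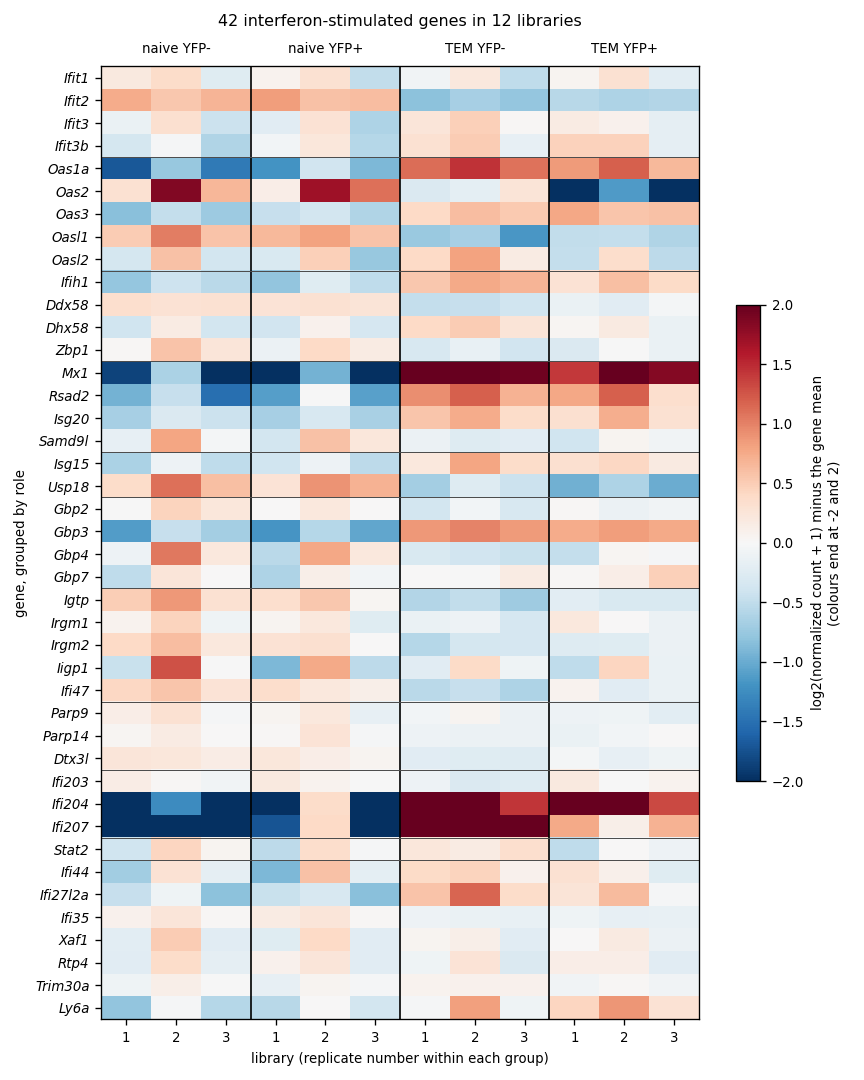
Heat map of the 42 genes (rows, grouped by role) in the 12 libraries (columns, 3 per group), with colour showing the log2 of the normalized count plus 1 minus the gene's mean over all libraries, and colours ending at -2 and 2. *Mx1*, *Oas1a* and *Gbp3* are blue in naïve and red in TEM columns, and *Ifit2* and *Oasl1* show the reverse. *Ifi204* and *Ifi207* are also blue in naïve and red in TEM columns, except that the second naïve YFP+ library is faintly red. In many rows the second library of a group is the reddest.

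The first question was how the genes differed between TEM and naïve cells. Within YFP− cells, 13 of the 42 were higher and 12 lower in TEM cells at an adjusted p of 0.05 or less (limma on log2 of the normalized count plus 1, adjusted over all 15587 genes), where 29.9% of all genes were higher and 19.9% lower. The 3 TEM libraries lay entirely above the 3 naïve ones for 12 genes and entirely below for 16, and such groups without overlap made up 59.0% of all genes. Within YFP+ cells, 12 were higher and 10 lower, against 24.7% and 16.7% of all genes. There the groups did not overlap for 11 genes above and 10 below, against 48.7% of all genes. The median log2 difference of the 42 genes was -0.04 in YFP− and 0.01 in YFP+ cells, and that of all genes was 0.05 and 0.03. The set was thus split between the directions, with no common shift. Permuting 3 libraries against 3 cannot give an exact p under 0.10, which leaves the calls to the spread that limma shares across genes.

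The direction was mostly the same in both YFP fractions. The 12 genes *Gbp3*, *Ifi204*, *Ifi207*, *Ifi27l2a*, *Ifih1*, *Isg15*, *Isg20*, *Ly6a*, *Mx1*, *Oas1a*, *Oas3* and *Rsad2* were higher in TEM cells in both. The 9 genes *Ddx58*, *Dtx3l*, *Ifi35*, *Ifi47*, *Ifit2*, *Igtp*, *Irgm2*, *Oasl1* and *Usp18* were lower in both. No gene was higher in one fraction and lower in the other, and 16 were called in neither.

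Of the 4 genes listed as antiviral effectors, *Mx1*, *Rsad2* and *Isg20* were higher in TEM cells in both YFP fractions, and *Samd9l* was called in neither. *Mx1* (Entrez 17857, chr16:97447035-97462906) encodes a dynamin-like GTPase that blocks viral ribonucleoproteins. It had 27.6, 65.8 and 17.3 normalized counts in the YFP− naïve libraries and 486, 626 and 398 in the YFP− TEM libraries. In YFP+ cells it had 7.42, 53.1 and 10.2 in naïve and 275, 706 and 370 in TEM libraries. Every TEM library lay above every naïve one, and replicate 2 was the highest of each group. The log2 difference was 3.92 (SE 0.65, adjusted p = 0.000292, limma) in YFP− and 4.60 (SE 0.65, adjusted p = 0.000115) in YFP+ cells. C57BL/6 mice are known to carry a defective *Mx1* allele, so its RNA level says nothing of the protein.

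*Rsad2* (Entrez 58185, chr12:26442743-26456452) encodes viperin, an enzyme that makes a chain-terminating nucleotide. Its YFP− naïve libraries had 113, 159 and 76.0 normalized counts and its YFP− TEM libraries 420, 502 and 353. The corresponding YFP+ libraries had 101, 217 and 102, and 375, 503 and 278. The groups did not overlap in either fraction, and the log2 differences were 1.91 and 1.50 (SE 0.34 in both, adjusted p = 0.000542 and 0.0038, limma). *Isg20*, an exonuclease for single-stranded RNA, was higher by 1.02 and 0.99 on the log2 scale (SE 0.16).

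The oligoadenylate synthetases, which sense double-stranded RNA and activate RNase L, and their relatives went in different directions. *Oas1a* (Entrez 246730, chr5:120896256-120907544) had 297, 571 and 359 normalized counts in YFP− naïve libraries and 2081, 2616 and 2044 in YFP− TEM libraries. In YFP+ cells it had 418, 739 and 515 in naïve and 1745, 2202 and 1508 in TEM libraries. The TEM libraries were all higher, by 2.50 and 1.73 on the log2 scale (SE 0.25 in both, adjusted p = 4.21e-06 and 0.000134, limma). *Oas3* was higher by 1.19 and 1.11 (SE 0.11). *Oasl1*, an inhibitor of *Irf7* translation in the mouse, was lower in TEM cells. It had 288, 413 and 303 in YFP− naïve and 121, 128 and 89.6 in YFP− TEM libraries, and 320, 356 and 301 against 145, 145 and 134 in YFP+ cells. None of these groups overlapped, and the log2 differences were -1.55 and -1.20 (SE 0.20, adjusted p = 3.2e-05 and 0.000365). *Oasl2* was called in neither fraction.

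*Oas2* (Entrez 246728, chr5:120730333-120749886) was lower in TEM than in naïve cells with YFP. It had 435, 1277 and 558 normalized counts in YFP− naïve libraries and 387, 1146 and 755 in YFP+ naïve libraries. Its TEM libraries had 287, 307 and 422 without YFP and 83.9, 161 and 69.4 with YFP. Naïve replicate 2 was above the other naïve libraries in both fractions, and each TEM group lay below its naïve group. In YFP+ cells the log2 difference was -2.82 (SE 0.45, adjusted p = 0.000306, limma). In YFP− cells it was -1.02 (SE 0.45, adjusted p = 0.0803), and the call was made with the replicate number as a block (adjusted p = 0.015). The difference between these log2 differences, -1.80 (SE 0.64), was not called (adjusted p = 0.215, limma), and with the block it was (adjusted p = 0.038). That block gives a replicate number the same shift in every group. In YFP+ cells, same-numbered naïve and TEM libraries did not all correlate above differently numbered ones.

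The cytosolic RNA sensors were divided. *Ifih1*, which encodes MDA5, was higher in TEM cells by 1.24 in YFP− and 0.94 in YFP+ cells on the log2 scale (SE 0.14). *Ddx58* (Entrez 230073, chr4:40203777-40239825), which encodes RIG-I, was lower. It had from 7376 to 7841 normalized counts over the 6 naïve libraries, 4447, 4494 and 4682 in YFP− TEM and 5636, 5272 and 5999 in YFP+ TEM libraries. The log2 differences were -0.76 and -0.41 (SE 0.07, adjusted p = 1.65e-06 and 0.000341, limma). *Dhx58*, which encodes LGP2, a regulator of the other two sensors, was higher by 0.59 (SE 0.17, adjusted p = 0.0108) in YFP− cells and had 0.24 (SE 0.17, adjusted p = 0.275) in YFP+ cells. *Zbp1*, a sensor of Z-form nucleic acids, was lower by a log2 difference of -0.56 in YFP− cells (SE 0.15, adjusted p = 0.00749) and had -0.30 in YFP+ cells (SE 0.15, adjusted p = 0.137).

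*Isg15* encodes a ubiquitin-like modifier and *Usp18* the protease that removes it and also restrains the type I interferon receptor. They differed in opposite directions. *Isg15* had 223, 326 and 245 normalized counts in YFP− naïve and 406, 601 and 450 in YFP− TEM libraries, with 263, 324 and 243 against 438, 464 and 394 in YFP+ cells. All TEM libraries were higher, by 0.87 and 0.65 on the log2 scale (SE 0.19, adjusted p = 0.0023 and 0.0168, limma), and with quantile normalization, which lowers the median of all genes here, neither call was made (adjusted p = 0.256 and 0.315). *Usp18* (Entrez 24110) had 837, 1389 and 982 in YFP− naïve and 403, 539 and 480 in YFP− TEM libraries, with 785, 1204 and 1047 against 334, 424 and 325 in YFP+ cells. Its TEM libraries were all lower, by log2 differences of -1.15 and -1.47 (SE 0.21, adjusted p = 0.000542 and 0.000107).

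The IFIT proteins bind foreign or unmethylated RNA ends. Among the 4 genes, *Ifit2* was the one called. *Ifit2* (Entrez 15958, chr19:34550550-34576534) had 5019, 4373 and 4785 normalized counts in YFP− naïve and 1700, 1899 and 1760 in YFP− TEM libraries, with 5366, 4500 and 4624 against 2043, 1959 and 2002 in YFP+ cells. The groups were far apart, with log2 differences of -1.40 and -1.27 (SE 0.09, adjusted p = 8.04e-08 and 2.35e-07, limma). *Ifit1*, *Ifit3* and *Ifit3b*, on the same stretch of chromosome 19, had log2 differences of -0.23 to 0.54 in YFP− and 0.08 to 0.38 in YFP+ cells.

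GTPases of the GBP and IRG families act on membranes around intracellular pathogens and are strongly induced by interferon-γ. All 5 IRG genes had a negative log2 difference in YFP− cells and 3 were called. *Igtp* (Entrez 16145, chr11:58199556-58207592), also called Irgm3, had 8339, 10795 and 7320 normalized counts in YFP− naïve and 3962, 4194 and 3615 in YFP− TEM libraries, with 7493, 8606 and 6092 against 5121, 4813 and 4798 in YFP+ cells. The TEM libraries were lower in both fractions, by log2 differences of -1.15 and -0.58 (SE 0.14, adjusted p = 2.77e-05 and 0.00629, limma). *Irgm2* gave -0.83 and -0.41 (SE 0.12), and *Ifi47* -0.96 and -0.33 (SE 0.10). *Gbp3* (Entrez 55932, chr3:142560016-142573213) went the other way. It had 515, 817 and 697 in YFP− naïve and 2037, 2231 and 2030 in YFP− TEM libraries, with 493, 756 and 548 against 1870, 2001 and 1898 in YFP+ cells. The differences were 1.66 and 1.70 (SE 0.17, adjusted p = 5.72e-06 and 6.81e-06). *Gbp2* was lower in YFP− cells (-0.47, SE 0.12, adjusted p = 0.00554), and *Gbp4* and *Gbp7* were not called.

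The IFI200 genes, whose proteins bind DNA, had both the largest and some of the smallest differences. *Ifi204* (Entrez 15951, chr1:173747293-173767069) had 5.76, 17.0 and 1.15 normalized counts in YFP− naïve and 170, 339 and 114 in YFP− TEM libraries. In YFP+ cells it had 8.66, 54.1 and 4.65 in naïve and 170, 392 and 106 in TEM libraries. All TEM libraries lay above the naïve ones, and replicate 2 was the highest in every group. The log2 differences were 4.88 and 3.74 (SE 0.90, adjusted p = 0.000644 and 0.00518, limma). *Ifi207* (Entrez 226691, chr1:173723424-173741831) had 3.46, 9.55 and 10.4 in YFP− naïve and 1085, 1035 and 1560 in YFP− TEM libraries, the widest gap of the set. In YFP+ cells it had 22.3, 101 and 14.0 in naïve and 129, 82.8 and 124 in TEM libraries, and these groups overlapped. The log2 differences were 7.22 (SE 0.60, adjusted p = 9.69e-07) and 1.75 (SE 0.60, adjusted p = 0.0334). The second was lost without naïve YFP+ replicate 1 or 3 and without TEM YFP+ replicate 1 or 3 (adjusted p up to 0.216 over all alternatives), and it was 2.57 without naïve YFP+ replicate 2. *Ifi203* was abundant everywhere, at 10361 to 14485 normalized counts, with a log2 difference of -0.25 (SE 0.09, adjusted p = 0.0404) in YFP− cells and no call in YFP+ cells (adjusted p = 0.985).

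Of the remaining genes, *Ifi27l2a* was higher in TEM cells by 1.16 and 0.82 on the log2 scale (SE 0.24, adjusted p = 0.00134 and 0.0142, limma) and *Ly6a* by 0.70 and 0.84 (SE 0.26, adjusted p = 0.0405 and 0.021). *Ifi35*, a leucine-zipper protein, was lower by log2 differences of -0.25 and -0.28 (SE 0.08), and *Dtx3l*, a ubiquitin ligase that pairs with Parp9, by -0.44 and -0.24 (SE 0.07). The mono-ADP-ribosyltransferase gene *Parp14*, *Parp9*, *Samd9l*, *Stat2* (the signal transducer of type I interferon), *Ifi44*, *Xaf1*, *Rtp4* and *Trim30a* were called in neither fraction. Without YFP− TEM replicate 2 the YFP− calls of *Ly6a*, *Ifi35* and *Ifi203* were lost. Without YFP+ TEM replicate 2 the YFP+ calls of *Isg15*, *Ifi47*, *Dtx3l*, *Ifi27l2a*, *Ifi35* and *Ly6a* were lost. Without naïve YFP+ replicate 2, the library with the high monocyte markers, 12 genes were higher and 9 lower in YFP+ cells, against 12 and 10 with all libraries. The share of all genes in that fit was not computed.

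The replicate number as a block added 9 calls between TEM and naïve cells in YFP− cells, for 16 genes higher and 18 lower (limma), where 33.0% of all genes were higher and 25.3% lower in that fit. The higher ones were *Ifit3* (adjusted p = 0.0446 with the block), *Ifit3b* (0.00395) and *Oasl2* (0.00622). The lower ones were *Ifit1* (adjusted p = 0.027), *Oas2* (0.015), *Gbp4* (0.0101), *Irgm1* (0.00746), *Parp9* (0.0271) and *Parp14* (0.0384). Their log2 differences ran from -1.02 for *Oas2* to 0.54 for *Ifit3b*, and most were small.

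**Figure D2:**
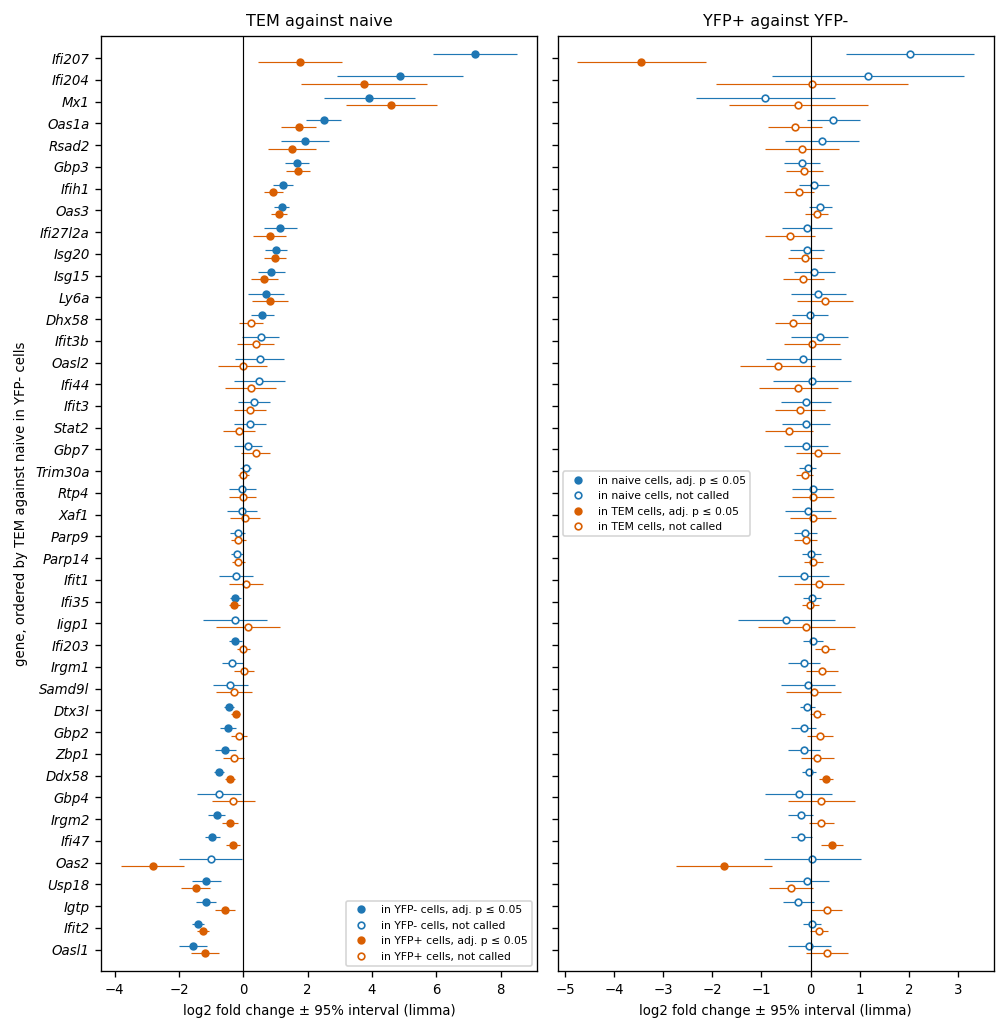
Log2 fold changes with 95% intervals (limma, 3 libraries per group) of the 42 genes, with TEM against naïve cells on the left and YFP+ against YFP− cells on the right, and filled points marking an adjusted p of 0.05 or less. On the left the genes run from 7.22 (*Ifi207*) to -1.55 (*Oasl1*) in YFP− cells, and on the right only *Ifi207*, *Oas2*, *Ifi47* and *Ddx58* have filled points, all in TEM cells.

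Genes of other cells moved with the memory comparison. All 7 conventional dendritic cell markers and 9 of the 10 plasmacytoid dendritic cell markers were higher in YFP− TEM than in YFP− naïve cells. In YFP+ cells the same was true of 5 of 7 and 7 of 10. Plasmacytoid cells are known for strong interferon responses. *Siglech*, their defining surface marker, had at most 16.7 normalized counts in any naïve library, 1412 to 3367 in YFP− TEM and 26.9 to 118 in YFP+ TEM libraries. Of the 9 monocyte and macrophage markers, 4 were higher in YFP− and 1 in YFP+ TEM cells, and of the 4 NK cell markers 2 and 3. The part of these cells in the TEM values was not tested.

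The second question was whether past GM-CSF expression went with a different interferon profile. Between YFP+ and YFP− TEM cells, 2 of the 42 genes were higher in YFP+ cells and 2 were lower (limma, adjusted p of 0.05 or less), where 2.30% of all genes were higher and 4.67% lower. The 3 YFP+ libraries lay entirely above the 3 YFP− ones for 8 genes and entirely below for 6, against 25.0% of all genes without overlap. The median log2 difference was 0.03 for the set and -0.01 for all genes. The 95% intervals of 35 of the 42 genes lay within 1 log2 unit of 0 on either side. The 38 genes that were not called had log2 differences from -0.67 to 0.33.

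*Ifi207* had the largest difference. Its YFP− TEM libraries, at 1085, 1035 and 1560 normalized counts, were all far above the YFP+ TEM libraries at 129, 82.8 and 124. The log2 difference was -3.44 (SE 0.60, adjusted p = 0.00338, limma). *Oas2* was also lower in YFP+ TEM cells, with 83.9, 161 and 69.4 against 287, 307 and 422 and no overlap. Its log2 difference was -1.76 (SE 0.45, adjusted p = 0.0339). The call was lost without any one of the TEM libraries other than YFP+ replicate 2 (adjusted p up to 0.148), and it failed in edgeR (adjusted p = 0.0686).

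The 2 genes that were higher differed by much less. *Ifi47* (Entrez 15953, chr11:49076587-49096987), an IRG GTPase, had 5268, 5582 and 4997 normalized counts in YFP− TEM and 8046, 6538 and 7023 in YFP+ TEM libraries, without overlap. The log2 difference was 0.44 (SE 0.10, adjusted p = 0.018, limma). *Ddx58* had 4447, 4494 and 4682 in YFP− and 5636, 5272 and 5999 in YFP+ TEM libraries, a log2 difference of 0.31 (SE 0.07, adjusted p = 0.0133). Both had been lower in TEM than in naïve cells, and the YFP+ TEM libraries lay between those groups. Both calls were lost without YFP− TEM replicate 1 or without YFP+ TEM replicate 3, and that of *Ifi47* also without YFP− TEM replicate 3 or YFP+ TEM replicate 1 (adjusted p up to 0.0946 for *Ifi47* and 0.0733 for *Ddx58*).

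The replicate number accounted for part of the spread. With it as a block, 4 genes were higher and 7 lower in YFP+ TEM cells (limma). The added higher genes were *Igtp* (log2 difference 0.33, adjusted p = 0.0498 with the block) and *Ifi203* (0.30, adjusted p = 0.00405 with the block). The added lower genes were *Oasl2* (-0.67, adjusted p = 0.00677), *Ifi27l2a* (-0.41, adjusted p = 0.0043), *Dhx58* (-0.35, adjusted p = 0.0314), *Usp18* (-0.39, adjusted p = 0.0365) and *Ifih1* (-0.23, adjusted p = 0.047). The blocked fit called 5.22% of all genes higher and 6.77% lower.

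Markers of other cells moved with these values as well. In YFP+ TEM cells, 8 of the 10 plasmacytoid and 6 of the 7 conventional dendritic cell markers were lower than in YFP− TEM cells. The 9 monocyte and macrophage markers were split. Of these, 2 were called lower (*Cd68* and *Adgre1*) and 0 higher, while 5 had a positive and 4 a negative log2 difference (median 1.31). The neutrophil markers *S100a8* (4.11) and *S100a9* (4.53) lay entirely above in YFP+ TEM libraries and were not called. The summed level of the plasmacytoid list was 11720 to 17797 in YFP− and 7283 to 7855 in YFP+ TEM libraries. It was 5920 to 7070 in naïve libraries, and from 1 to 4 of its 10 markers were at 0 there. Between TEM fractions the median log2 difference of the 10 markers was -4.57, a wider gap than the sums show. *Pacsin1* (-0.22) and *Ccr9* (1.28) were the markers of that list that were not called. *Ifi207* and the summed conventional dendritic cell markers were both highest in YFP− TEM replicate 3 (1560 and 16110) among the TEM libraries. Both were lowest in replicate 2 of each TEM fraction. In YFP+ TEM cells *Ifi207* was highest in replicate 1, and the summed markers were highest in replicate 3 (979, against 974 in replicate 1). The summed level of the 4 NK cell markers was higher in YFP+ TEM libraries (1376 to 2085) than in YFP− TEM libraries (618 to 838), and *Klrb1c* (log2 difference 3.03) and *Ncr1* (4.62) were called. Both markers of CD8 T cells, *Cd8a* (-3.13) and *Cd8b1* (-1.63), were lower in YFP+ TEM cells. The B cell markers *Ebf1* (2.94) and *Cd79a* (1.91) were higher, while the summed level of the 8 B cell markers was 1478 to 2044 in YFP+ and 2294 to 3335 in YFP− TEM libraries. The part of these cells in the values of the 4 called genes was not tested.

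**Figure D3:**
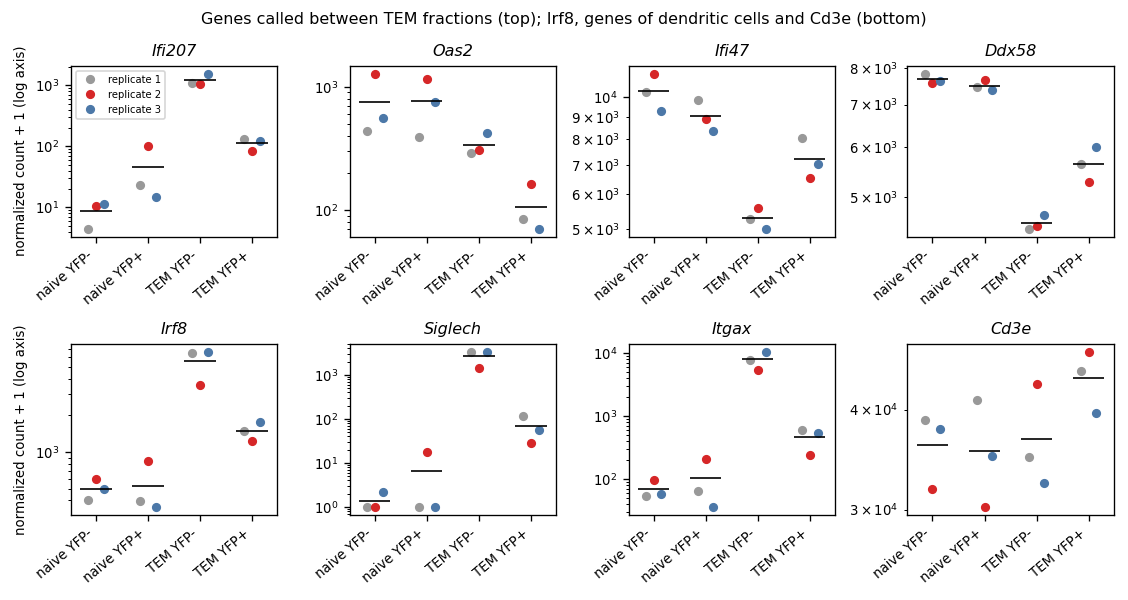
Normalized counts plus 1 on log axes in each library (points, coloured by replicate number) with group means (bars), for the 4 genes called between TEM fractions in the top row and for *Irf8*, the dendritic cell genes *Siglech* and *Itgax*, and *Cd3e* in the bottom row. *Ifi207* has its 3 highest values in YFP− TEM cells, as *Irf8*, *Siglech* and *Itgax* do, while *Oas2*, *Ifi47* and *Ddx58* are highest in naïve cells.

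Naïve YFP+ and YFP− cells were not separated by these genes. None of the 42 was called higher or lower, against 0.00642% of all genes called higher (a single gene) and 0 called lower (limma). At an unadjusted p under 0.05, 1 gene was higher and 0 were lower, against 2.49% and 0.834% of all genes. The groups did not overlap for 1 gene, against 5.38% of all genes. The median log2 difference was -0.06 for the set and 0.01 for all genes, and 36 of the 42 intervals lay within 1 log2 unit of 0. That gene was *Ifi207*, with 22.3, 101 and 14.0 normalized counts in YFP+ and 3.46, 9.55 and 10.4 in YFP− naïve libraries. Its log2 difference was 2.02 (SE 0.60, 95% interval 0.71 to 3.32), which was called by DESeq2 (adjusted p = 0.0489) but not by limma or edgeR (adjusted p = 1 in both). Its highest naïve value was in YFP+ replicate 2, the library with the high monocyte and macrophage markers (5064), and their part in that value was not tested.

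The difference between YFP fractions was then compared between TEM and naïve cells. This interaction was called for *Ifi47*, where the YFP+ minus YFP− difference was larger in TEM cells by 0.63 on the log2 scale (SE 0.14, adjusted p = 0.0308, limma), and for *Ifi207*, where it was smaller, at -5.46 (SE 0.85, adjusted p = 0.00474). The call of *Ifi47* was lost without a variance trend and in 8 of the 12 fits that left out 1 library (adjusted p up to 0.0998). Over all genes 0.828% had a higher and 2.73% a lower interaction. With the block, *Ddx58* (0.34, adjusted p = 0.0294), *Igtp* (0.57, adjusted p = 0.0321), *Oas1a* (-0.77, adjusted p = 0.0283) and *Oas2* (-1.80, adjusted p = 0.038) were added, for 3 higher and 3 lower, where 1.88% of all genes were higher and 3.83% lower. The block gives a replicate number the same shift in every group. Same-numbered YFP+ naïve and TEM libraries did not all correlate above differently numbered ones, and the shift of replicate 2 was larger in naïve cells. The added interaction calls rest on that shared shift. Without the block, the adjusted p was 0.0786 for *Ddx58* and 0.215 for *Oas2*. The genes called between TEM and naïve cells in YFP− cells but not in YFP+ cells, *Dhx58*, *Gbp2*, *Ifi203* and *Zbp1*, had adjusted interaction p-values from 0.502 to 0.829 (limma), so the YFP fractions were not shown to differ for them.

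A further regular feature of the set went with the replicate number and was present in all 4 sorted groups. It was chosen after the values were seen and is described without a test. Replicate 2 had the highest value of its group for 37 (88.1%) of the 42 genes in YFP− naïve cells. The number was 38 (90.5%) for YFP+ naïve, 30 (71.4%) for YFP− TEM and 25 (59.5%) for YFP+ TEM cells. Among all genes tested it was the highest in 36.6%, 39.5%, 31.6% and 35.3%. For 21 of the 42 genes it was the highest in all 4 groups, which held for 5.24% of all genes. *Ifit1*, *Mx1*, *Rsad2*, *Isg15*, *Usp18*, *Oas1a*, *Iigp1* and *Xaf1* were among the 21.

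The size of the shift was larger in naïve cells. The median log2 difference of replicate 2 from the mean of the other replicates was 0.48 in naïve cells without YFP and 0.41 in those with YFP, and 0.17 in both TEM groups. *Iigp1*, an IRG GTPase, had 1215, 3975 and 1639 normalized counts in YFP− naïve and 885, 2783 and 1146 in YFP+ naïve libraries. Its TEM libraries had 1410, 2152 and 1555 without YFP and 1167, 2233 and 1502 with YFP, again highest in replicate 2. *Gbp4* had 5715, 12688 and 7054 in YFP− naïve and 4218, 10429 and 7047 in YFP+ naïve libraries, but 4973, 4661 and 4494 in YFP− TEM libraries, where replicate 2 was not the highest. Genes at the stable end were *Dtx3l* and *Ifi203*, for which replicate 2 was the highest in none of the groups.

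The spread within groups followed. The median SD of the log2 values was 0.32 for the set and 0.21 for all genes in naïve cells without YFP, and 0.27 and 0.22 in those with YFP. In TEM cells it was 0.15 and 0.17 without YFP, and 0.17 and 0.21 with YFP. *Xist*, which female cells express, had at least 11867 normalized counts in replicates 1 and 2 and at most 24.7 in replicate 3. The part of sex in these values was not tested. The summed monocyte and macrophage markers were highest in replicate 2 in both naïve groups (976 and 5064) and lowest in replicate 2 in both TEM groups (6546 and 2464), where the interferon genes were also highest in replicate 2. In both naïve groups replicate 2 also had the highest sums of the B cell (1509 and 2171), conventional dendritic cell (122 and 290) and neutrophil markers (32.9 and 229) and the lowest sum of the CD4+ T cell markers (144867 and 145016). In both TEM groups it had the lowest B cell and conventional dendritic cell sums and the highest CD4+ T cell sum. The part of these cells in the replicate values was not tested.

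**Figure D4:**
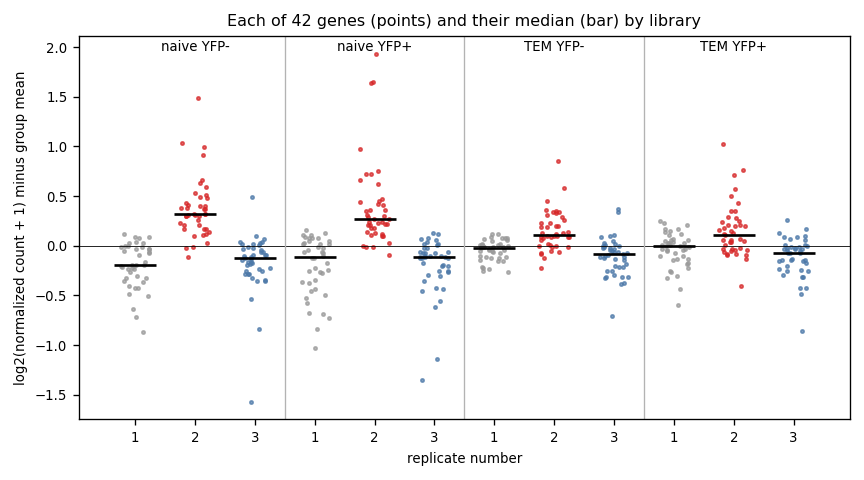
Log2 of the normalized count plus 1 minus the mean of the gene in its group, for each of the 42 genes (points) in each library (columns, by replicate number within the 4 groups), with bars at the median. The bars of replicate 2 lie above 0 in all 4 groups and higher in the naïve ones, and those of replicates 1 and 3 lie at or below 0.

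Genes upstream of the set were compared as a background. Of 9 listed interferon genes only *Ifng* was in the table, with 545, 1291 and 561 normalized counts in YFP− TEM and 536, 1930 and 1073 in YFP+ TEM libraries, and at most 6.37 in naïve libraries. It was higher in TEM than in naïve cells (log2 difference 8.19 in YFP− and 9.11 in YFP+ cells, SE 0.72, adjusted p = 1.44e-06 and 8.37e-07, limma), while the TEM fractions overlapped. Of 8 tested receptor and kinase genes, 4 were higher and 3 lower in TEM cells in YFP− cells. *Ifngr2*, a chain of the interferon-γ receptor, was the largest of these, with 5059, 3507 and 3450 in YFP− naïve, 1413, 918 and 1813 in YFP− TEM and 640, 351 and 524 in YFP+ TEM libraries. It was lower in TEM cells by a log2 difference of -1.57 in YFP− cells (SE 0.27, adjusted p = 0.000372) and of -2.98 in YFP+ cells (adjusted p = 2.81e-06). It was also the 1 of the 8 called between TEM fractions, lower in YFP+ cells (-1.44, SE 0.27, adjusted p = 0.00521).

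Of 5 transcription factor genes, 1 was higher and 2 lower in YFP− TEM than in YFP− naïve cells. *Irf1* (-0.54) and *Irf9* (-0.36) were the lower ones and *Irf8* (3.45), which myeloid and dendritic cells express strongly, the higher one (adjusted p = 0.00148, 0.0384 and 2.34e-06, limma). Between TEM fractions only *Irf8* was called, with 6550, 3540 and 6686 normalized counts in YFP− and 1477, 1228 and 1774 in YFP+ libraries (log2 difference -1.86, SE 0.32, adjusted p = 0.00311). *Irf7*, the amplifier of type I interferon, had -0.10 (SE 0.20, adjusted p = 0.90) there. Of 6 negative regulators, *Socs1* (0.51, adjusted p = 0.0306) and *Ptpn2* (0.35, adjusted p = 0.0409) were higher in YFP+ TEM cells. A further 47 interferon-stimulated genes outside the set gave 1 higher and 6 lower in YFP+ TEM cells, the higher one being *Ly6c1* (1.56, adjusted p = 0.00334, limma). Over all genes 2.30% were higher and 4.67% lower in that comparison. In YFP− TEM against YFP− naïve cells, 19 of the 47 were higher and 11 lower, where 29.9% of all genes were higher and 19.9% lower.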

How the data were processed

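RNA of 12 libraries was sequenced by the authors from total RNA with a stranded kit, aligned to mm10 by DRAGEN, and counted on genes with Rsubread, and DESeq2 was used for their tests. The deposited signal is the read count of a gene divided by the DESeq2 size factor of the library, and whole reads were recovered from 100% of values within a tolerance of 0.001. Depth was 40974124 to 57822269 reads per library. The annotation, the strand setting and the tool versions are not given in the sources used here. The members, gene lists and tests were chosen with earlier results of these data known, and some genes of the background lists are not reported here.

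RefSeq on GRCm38.p6 named 16749 of 17523 genes, and exon lengths came from GENCODE M21. Genes reaching 5 normalized counts in 3 or more libraries were fitted in limma 3.58.1 (R 4.3.3) as log2 of the value plus 1, with 4 group means, an eBayes trend and 8 residual degrees of freedom. The Benjamini-Hochberg adjustment ran over all 15587 genes. Log2 differences of low genes are understated by the added 1. All 42 genes are accounted for by role. Library values are given for genes called between YFP fractions or in the interaction and for the 5 largest called increases and decreases between TEM and naïve cells, and for *Isg15*, *Iigp1* and *Gbp4* chosen after their values were seen.

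The labels do not say whether a replicate number marks the same mouse, so same-numbered libraries were compared between groups. After removal of group means, same-numbered libraries correlated at 0.180 to 0.356 between YFP fractions of TEM cells, 0.306 to 0.491 in naïve cells, and 0.137 to 0.232 between YFP− naïve and YFP− TEM cells. The range was 0.104 to 0.212 between YFP+ naïve and YFP− TEM cells, and 0.0646 to 0.176 between YFP− naïve and YFP+ TEM cells. Differently numbered libraries reached at most 0.0147 and 0.025 there. Between YFP+ naïve and YFP+ TEM cells the range was -0.0199 to 0.204, and differently numbered libraries reached 0.0781, so the replicate numbers were less clear there. The main fit used no block. The replicate block gives each replicate number the same shift in every group, YFP+ naïve and TEM cells included. Alternatives were other prior counts and filters, quantile normalization, TMM factors, fewer libraries, the replicate block, no variance trend, a fold threshold, edgeR 4.0.16 and DESeq2 1.42.0 on the recovered reads, and leaving out each library. The fit was tested on simulated data.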

Additional observations from a re-analysis of the deposited data

Results flagged for a closer look

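The difference between YFP+ and YFP− cells was not the same in TEM and naïve cells for 2 of the 42 genes, by the interaction term in limma over 12 libraries. For *Ifi207* the interaction was -5.46 on the log2 scale (SE 0.85, adjusted p = 0.00474), since its mean was higher in YFP+ than in YFP− naïve cells and lower in YFP+ than in YFP− TEM cells. For *Ifi47* it was 0.63 (SE 0.14, adjusted p = 0.0308), with a YFP+ minus YFP− difference of -0.19 in naïve and 0.44 in TEM cells, and it was past the threshold in 4 of the 12 fits that left out 1 library, those without naïve YFP− replicate 3, naïve YFP+ replicate 1, YFP− TEM replicate 2 or YFP+ TEM replicate 2 (adjusted p up to 0.0998 in the alternatives). The naïve differences were not themselves called (adjusted p = 1 for both).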

How the results depend on the processing

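No value changed direction among called genes under any of 25 settings. Between TEM fractions, the 2 higher genes became 4 with quantile normalization and 4 with the replicate block or with edgeR and the block (the latter chosen after seeing the data), and 0 with a log2 threshold of 1. The 2 lower genes became 7 with the block, 4 with edgeR and the block, and 1 without a variance trend or with edgeR alone. Leaving out 1 library gave 0 to 2 higher genes (0 without YFP− TEM replicate 1 or YFP+ TEM replicate 3, 1 without YFP− TEM replicate 3 or YFP+ TEM replicate 1) and 1 to 2 lower ones (1 when any TEM library other than YFP+ replicate 2 was left out). In naïve cells DESeq2 called 1 gene, *Ifi207*, and every other setting 0. With the log2 threshold of 1, the memory comparison gave 4 lower genes in YFP− cells, and 7 higher and 4 lower in YFP+ cells. The 1 higher interaction became 2 with TMM factors, edgeR or DESeq2, 3 with the block in limma or edgeR, and 0 without a trend or with the threshold, and leaving out 1 library gave 0 to 1. The 1 lower interaction became 3 with the block and 2 with edgeR and the block. In the memory comparisons the block gave 16 higher and 18 lower in YFP− and 14 higher and 12 lower in YFP+ cells, within 1.5 times of the counts without it. Over all 15587 genes, that fit called 33.0% higher and 25.3% lower in YFP− cells, and 4454 genes higher and 3500 lower in YFP+ cells. Beyond the main fit and the limma block, shares of all genes were not computed, so those counts stand without a background. Calls in YFP− cells were also lost without naïve replicate 1 (*Ifi203*, *Ly6a*), 2 (*Ifi203*, *Ifi35*) or 3 (*Ly6a*) and without TEM replicate 3 (*Ifi203*, *Ifi35*), and in YFP+ cells without naïve replicate 1 (*Ifi47*, *Ly6a*), 2 (*Ifi35*) or 3 (*Isg15*, *Ifi27l2a*, *Ly6a*) and without TEM replicate 3 (*Ifi47*), beside those given in the report. Quantile normalization moved the median of all genes to -0.197 in YFP− and -0.138 in YFP+ cells, from 0.0493 and 0.0328. The causes were not tested, beyond the stricter rule of the threshold and the fewer libraries of the others.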
